A study of Homo sapiens with 9 samples.

Results

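The miRNA processing and export machinery is the short chain of proteins that turns a primary miRNA transcript into a mature miRNA, and 5 of its genes were followed here among the 19569 gene IDs of a ribosome footprint count table. They were picked by Ensembl ID: DROSHA (ENSG00000113360.17), DGCR8 (ENSG00000128191.16), XPO5 (ENSG00000124571.18), DICER1 (ENSG00000100697.15) and TARBP2 (ENSG00000139546.11), each with exactly 1 row in the table. All 5 passed the filter on low counts. The choice used no measured value, but it was made with results of these libraries already known.

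The study activated Jurkat clone E6-1, an established human T lymphoblast line, and sequenced ribosome footprints, the short pieces of mRNA that translating ribosomes protect. There were 3 biological replicates in each of 3 groups: resting cells that were not activated, a 5 h group and a 12 h group. Both activated groups were kept on plates coated with anti-CD3 antibody (10 µg/mL) in medium with anti-CD28 antibody (5 µg/mL). The labels gave the resting cells as 0 h and named no unactivated cells at 5 h or 12 h. Activation and the hours passed thus cannot be told apart. Nothing else distinguished the groups in the labels. All libraries thus come from 1 leukaemic clone, and its identity as a T cell was not checked against marker genes here, since the tables pair no other gene ID with a symbol.

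As background, primary miRNA transcripts fold into hairpins. In the nucleus DROSHA, an RNase III enzyme, cuts the hairpin free with the help of DGCR8, a double-stranded RNA binding protein that recognises it; together they form the Microprocessor. XPO5 (exportin-5) carries the freed precursor through the nuclear pore with Ran-GTP. In the cytoplasm DICER1, the other RNase III enzyme, removes the loop, and TARBP2 (also called TRBP) binds DICER1 and assists this cut and the loading of Argonaute. The Microprocessor is also known to cut hairpins inside the DGCR8 mRNA itself, which lowers DGCR8 in many cells.

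Those hairpins are annotated as miRNA genes within DGCR8, and their mature sequences are shown because they mark where the DGCR8 mRNA can itself be a substrate of the pair described first. The sequences are from RefSeq (GRCh38.p14, plus strand), 5′ to 3′, with the seed (bases 2 to 8) in capitals. They lie at chr22:20085797-20085818 (hsa-miR-3618), chr22:20086072-20086093 (hsa-miR-1306-5p) and chr22:20086112-20086129 (hsa-miR-1306-3p). The 3 seeds differ from each other. No miRNA was measured in these libraries.
hsa-miR-3618: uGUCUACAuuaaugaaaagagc
hsa-miR-1306-5p: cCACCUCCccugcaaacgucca
hsa-miR-1306-3p: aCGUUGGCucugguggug

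The promoters of the 5 genes are shown because 4 of the genes moved the same way at 5 h and DICER1 did not. Each window holds 250 bases before and 50 after a start site annotated by RefSeq (GRCh38.p14), written 5′ to 3′ on the gene's strand. Capitals mark every CCAAT box, searched as CCAAT on both strands, so that a reverse match reads ATTGG. DROSHA lies at chr5:31532044-31532343 (minus strand), DGCR8 at chr22:20079991-20080290 (plus), XPO5 at chr6:43575989-43576288 (minus), DICER1 at chr14:95157480-95157779 (minus) and TARBP2 at chr12:53500673-53500972 (plus). RefSeq lists 5 windows for DICER1 and 3 for TARBP2, of which the first listed is shown.
DROSHA: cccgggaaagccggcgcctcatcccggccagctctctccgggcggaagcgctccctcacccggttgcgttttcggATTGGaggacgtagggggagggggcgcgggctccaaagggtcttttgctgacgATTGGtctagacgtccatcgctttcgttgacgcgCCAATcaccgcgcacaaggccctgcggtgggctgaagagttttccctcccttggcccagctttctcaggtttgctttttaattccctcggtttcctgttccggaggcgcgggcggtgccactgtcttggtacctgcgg
DGCR8: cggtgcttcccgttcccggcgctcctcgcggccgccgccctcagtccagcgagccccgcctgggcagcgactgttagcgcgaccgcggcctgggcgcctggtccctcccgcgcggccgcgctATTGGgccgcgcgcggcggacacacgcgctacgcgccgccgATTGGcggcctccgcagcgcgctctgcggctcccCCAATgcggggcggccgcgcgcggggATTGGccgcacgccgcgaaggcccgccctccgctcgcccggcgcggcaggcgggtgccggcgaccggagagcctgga
XPO5: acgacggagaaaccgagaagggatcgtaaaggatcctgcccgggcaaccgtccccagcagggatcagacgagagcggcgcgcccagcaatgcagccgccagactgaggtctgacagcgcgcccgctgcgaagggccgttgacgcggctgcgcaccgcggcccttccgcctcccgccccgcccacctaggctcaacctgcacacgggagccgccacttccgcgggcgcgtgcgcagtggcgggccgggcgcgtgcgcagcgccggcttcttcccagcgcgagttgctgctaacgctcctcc
DICER1: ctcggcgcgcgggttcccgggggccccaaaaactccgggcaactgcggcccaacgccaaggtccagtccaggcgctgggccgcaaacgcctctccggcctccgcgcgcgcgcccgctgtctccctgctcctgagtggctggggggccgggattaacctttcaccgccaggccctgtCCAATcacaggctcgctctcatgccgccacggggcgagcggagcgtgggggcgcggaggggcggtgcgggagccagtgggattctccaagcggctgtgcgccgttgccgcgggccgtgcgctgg
TARBP2: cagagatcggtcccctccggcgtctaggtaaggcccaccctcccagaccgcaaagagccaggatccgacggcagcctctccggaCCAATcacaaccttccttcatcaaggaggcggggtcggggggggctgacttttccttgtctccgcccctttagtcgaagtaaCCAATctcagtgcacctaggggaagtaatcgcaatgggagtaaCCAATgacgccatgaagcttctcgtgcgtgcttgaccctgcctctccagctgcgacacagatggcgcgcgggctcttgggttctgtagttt

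The windows shown held 3 CCAAT boxes in DROSHA, 4 in DGCR8, 3 in TARBP2, 1 in DICER1 and 0 in XPO5, against a match in 34.6% of 35116 RefSeq windows of the same length. Every window shown held a GC box (GGGCGG, both strands), as did 45% of all windows. The bases G and C made up 63% of the window of DROSHA, 80.3% of DGCR8, 71.7% of XPO5, 73.7% of DICER1 and 59% of TARBP2. The median of all windows was 58.7%, so the shares over all windows are not those of windows of like content. The NFAT core (TTTCC, both strands), a motif of the calcium-responsive factors that act after T cell receptor stimulation, matched 3 times in DROSHA and once in TARBP2, and 61.2% of all windows hold it. None of the 5 windows shown held an E-box (CACGTG), a CRE (TGACGTCA), a TATA box (TATAAA), the NRF1 core (GCATGCGC), an AP-1 site (TGANTCA) or an EGR site (GCGTGGGCG), all on both strands. Their shares of all windows were 7.26%, 1.85%, 11.5%, 3.05%, 7.71% and 0.795%. The windows not shown differed from these: the NFAT core was in 4 of the other 4 windows of DICER1, a CCAAT box in 1 of them, a GC box in 2 and an AP-1 site in 1. Of the other 2 windows of TARBP2, 1 held a CCAAT box and no GC box, 1 held a GC box and no CCAAT box, and neither held the NFAT core. The 5 windows shown thus had no motif of this list in common other than the GC box. A match describes the letters only.

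The libraries held between 4343515 and 18506509 footprint counts. Levels are given as CPM, the counts of a gene set against the TMM-scaled library total, as mean ± SD over 3 replicates. Differences were tested with edgeR's quasi-likelihood test over all 13920 IDs that passed the filter, adjusted by Benjamini-Hochberg over all of them and called at an adjusted p under 0.05. A rise or fall is thus relative to the rest of its scaled library. A footprint count joins the amount of mRNA and its translation, which cannot be told apart here, nor can less signal per cell from fewer cells carrying it. Levels are compared within a gene only, because no coding length was used.

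Footprints of both Microprocessor genes were lower at 5 h than at rest. DROSHA fell by 41.7% and DGCR8 fell by 52.0%. XPO5 fell by 23.4% and TARBP2 fell by 36.3%, while DICER1 was 1.25-fold above rest without passing the test. By 12 h the genes had parted: DGCR8 stayed low, DROSHA had regained part of its level, TARBP2 was not called different from rest, and DICER1 was below rest. At 5 h 4 of the 5 genes were called lower and 0 higher, where 18.4% of all tested IDs were called lower, 16.0% higher and 34.5% either way. At 12 h 3 of the 5 were called lower and 0 higher, where 19.3% of all tested IDs were called lower and 35.1% either way. The median log2 fold change of the 5 genes was -0.65 at 5 h and -0.33 at 12 h, and that of all tested IDs was 0.07 and 0.04. Both comparisons use the same resting libraries.

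**Figure D1:**
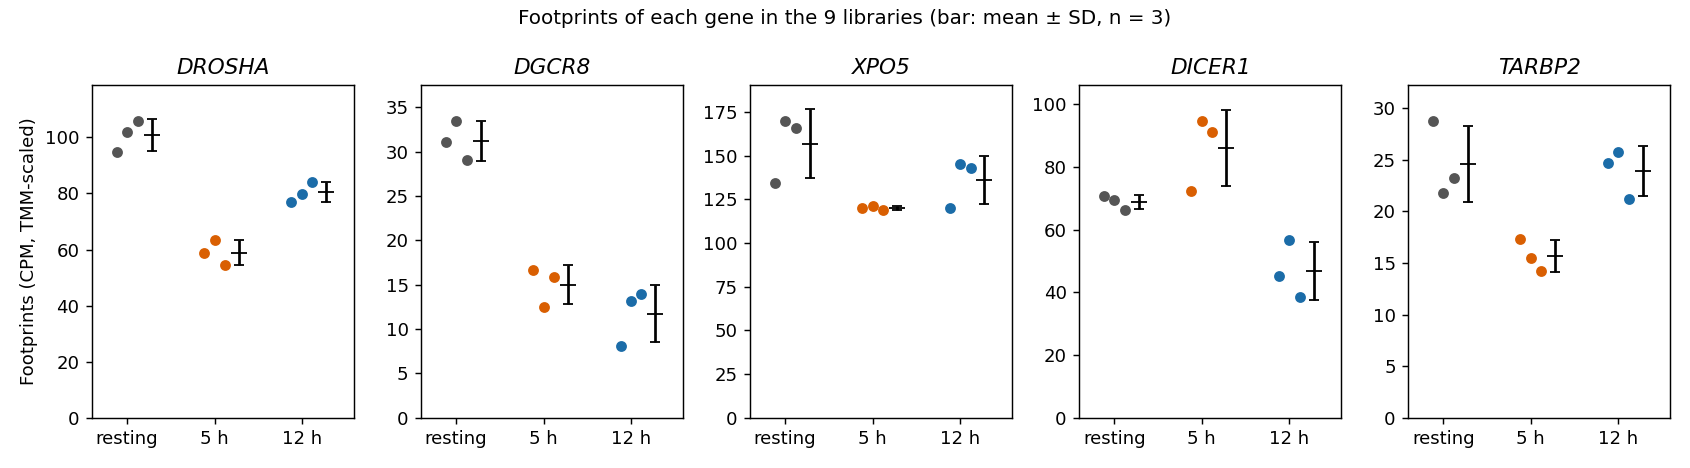
Footprint level of each gene in every library, in CPM on a linear axis that starts at 0 with its own scale per gene. Points are libraries in the order of replicates 1 to 3 within each group, and bars beside them show the mean ± SD (n = 3). DROSHA, DGCR8, XPO5 and TARBP2 are lower at 5 h than in any resting library, and DICER1 is highest at 5 h and lowest at 12 h.

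DROSHA stood at 94.7, 102 and 106 CPM in resting replicates 1, 2 and 3. It stood at 58.6, 63.5 and 54.6 CPM at 5 h, and at 77.1, 79.9 and 84.2 CPM at 12 h. No group overlapped another: the 5 h libraries were the lowest, the 12 h libraries came next and the resting libraries were the highest. The means were 101 ± 5.62, 58.9 ± 4.47 and 80.4 ± 3.55 CPM (SD, n = 3). By edgeR the log2 fold change was -0.78 ± 0.11 (SE) at 5 h, with an adjusted p of 3.20e-06, which placed DROSHA among the lowest 6.25% of log2 fold changes. At 12 h it was -0.33 ± 0.11 against rest, with an adjusted p of 0.0185. The partial return between 5 h and 12 h was a rise of 1.37-fold, 0.45 ± 0.11 on the log2 scale, with an adjusted p of 0.00263 by edgeR. The dip at 5 h held under every alternative run, whereas the 12 h call was lost without resting replicate 3 (-0.30, adjusted p = 0.0646 by edgeR) and without 12 h replicate 1 (-0.30, adjusted p = 0.0752). It was also lost with no scaling beyond the total count, which raised the median of all IDs at 12 h to 0.23, and with at least 50 counts required in 3 libraries.

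DGCR8, the partner that holds the hairpin for DROSHA, showed the largest fall of the 5 genes at both times. It stood at 31.1, 33.5 and 29.0 CPM in resting replicates 1, 2 and 3. It stood at 16.6, 12.5 and 15.9 CPM at 5 h and at 8.13, 13.1 and 14.0 CPM at 12 h. All 6 activated libraries lay below all resting ones, with the lowest resting value 74.4% above the highest 5 h value, and the activated groups overlapped each other. The means were 31.2 ± 2.26 at rest, 15.0 ± 2.19 at 5 h and 11.8 ± 3.16 CPM at 12 h (SD, n = 3). The log2 fold change was -1.06 ± 0.19 (SE) at 5 h and -1.44 ± 0.21 at 12 h, with adjusted p of 0.000143 and 6.50e-06 by edgeR. These values lay among the lowest 2.72% and 2.01% of all tested IDs.

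Between 5 h and 12 h the DGCR8 difference was -0.38 (log2), with a 95% interval from -0.81 to 0.05 and an adjusted p of 0.201 by edgeR, so a further decrease was not resolved. The gene rested on few counts at 12 h, namely 95, 60 and 104, for which counting alone gives a coefficient of variation of 10.3%, 12.9% and 9.81%. Replicate 1 was the low library of that group; without it the 12 h log2 fold change was -1.21 and still called. RefSeq places MIR3618 and MIR1306 inside DGCR8, and footprints do not tell whether a DGCR8 mRNA had been cut there.

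XPO5, the export receptor, changed least of the genes that were called at 5 h. It stood at 134, 170 and 166 CPM in resting replicates 1, 2 and 3. It stood at 120, 121 and 119 CPM at 5 h and at 120, 145 and 143 CPM at 12 h. The coefficient of variation of the 5 h libraries was 0.767%, below the 2.90%, 2.49% and 2.13% that counting alone gives for replicates 1, 2 and 3. Their closeness is thus no measure of the spread between cultures. The 5 h libraries lay below all resting libraries, though only by 10.5% at the nearest pair, while the 12 h libraries overlapped both other groups. Resting replicate 1 was the low library of its group. The means were 157 ± 20.0, 120 ± 0.923 and 136 ± 13.9 CPM (SD, n = 3). The log2 fold change at 5 h was -0.38 ± 0.11 (SE), with an adjusted p of 0.00609 by edgeR.

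At 12 h the XPO5 difference from rest, -0.21 (log2), had a 95% interval from -0.43 to 0.01 and an adjusted p of 0.130 by edgeR. Without resting replicate 1 it was -0.33 and passed, with an adjusted p of 0.0307. With no scaling beyond the total count the 5 h call was lost (-0.24, adjusted p = 0.0703 by edgeR). XPO5 overlaps POLR1C in the RefSeq gene table by the span of the whole genes, and shared exons were not examined. No source used here says whether the counting used strand, so part of its count may be uncertain.

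DICER1, the cytoplasmic RNase III enzyme, was the 1 gene of the 5 with a mean above rest at 5 h. It stood at 70.7, 69.6 and 66.4 CPM in resting replicates 1, 2 and 3. It stood at 72.3, 94.8 and 91.3 CPM at 5 h and at 45.2, 56.7 and 38.6 CPM at 12 h. Replicates 2 and 3 at 5 h lay well above rest and replicate 1 only just above it, and every 12 h library lay below every other library. The means were 68.9 ± 2.22, 86.1 ± 12.1 and 46.8 ± 9.17 CPM (SD, n = 3). The log2 difference at 5 h was 0.33 ± 0.13 (SE), with a 95% interval from 0.06 to 0.59, and it narrowly missed the threshold at an adjusted p of 0.0564 by edgeR. Without 5 h replicate 1 it was 0.43 and passed, with an adjusted p of 0.0135. It also passed with upper quartile scaling, with scaling to the total count, with at least 50 counts required in 3 libraries and with the 6 compared libraries fitted alone.

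The later decrease of DICER1 was clear of the spread. At 12 h it fell by 32.7% against rest, a log2 fold change of -0.57 ± 0.14 (SE) with an adjusted p of 0.00204 by edgeR. Between 5 h and 12 h it fell by 46.3%, by 0.90 ± 0.13 on the log2 scale, with an adjusted p of 2.11e-05. That change lay among the lowest 8.17% of all tested IDs. Both calls held in every alternative run. RefSeq lists the long noncoding DICER1-AS1 and MIR3173 as overlapping DICER1, and reads from an antisense partner cannot be told apart if strand was not used in the counting.

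TARBP2, the partner of DICER1, dipped and came back. It stood at 28.8, 21.8 and 23.2 CPM in resting replicates 1, 2 and 3. It stood at 17.3, 15.5 and 14.2 CPM at 5 h and at 24.7, 25.8 and 21.2 CPM at 12 h. All 5 h libraries lay below all others, and the 12 h libraries lay within or just under the resting range. The means were 24.6 ± 3.70, 15.7 ± 1.56 and 23.9 ± 2.38 CPM (SD, n = 3). The log2 fold change at 5 h was -0.65 ± 0.17 (SE), with an adjusted p of 0.00450, and the return from 5 h to 12 h was 1.53-fold, 0.61 ± 0.17 on the log2 scale, with an adjusted p of 0.0108 by edgeR.

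Against rest the 12 h level of TARBP2 differed by -0.04 (log2), with a 95% interval from 0.759-fold to 1.24-fold and an adjusted p of 0.881 by edgeR. Changes within that interval remain compatible with these libraries, so an unchanged level is not shown. The sign of the difference turned with the setting. The 5 h dip and the return were called in every alternative run. TARBP2 overlaps MAP3K12 in the RefSeq gene table, so its count too may be uncertain if the genes share exons, which was not examined.

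**Figure D2:**
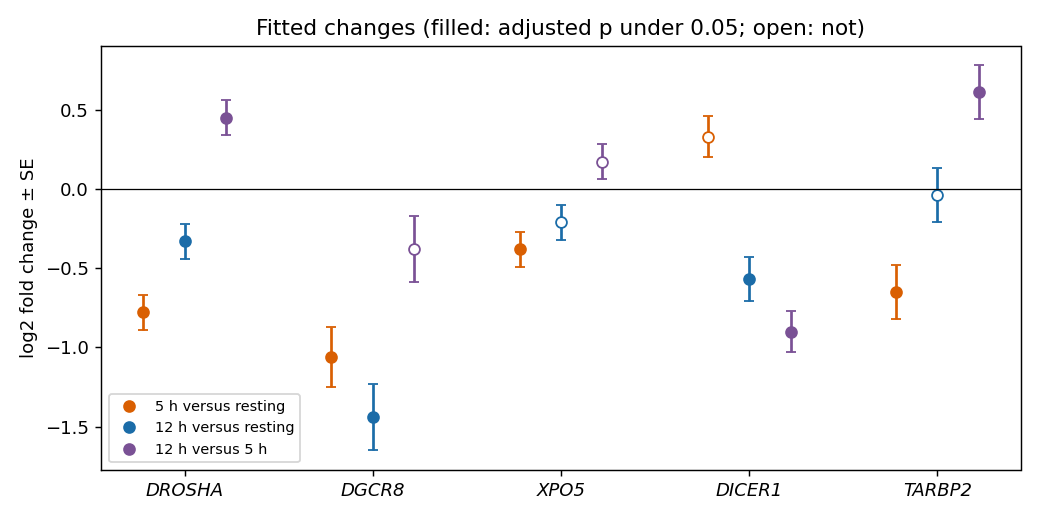
Fitted log2 fold changes with their SE for the 5 genes in the 3 comparisons, by edgeR. Filled points passed an adjusted p under 0.05 and open points did not. DGCR8 lies lowest at both times against rest, and DICER1 is the gene with a positive value at 5 h and negative values in both comparisons of 12 h.

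Set directly against 5 h, the 12 h libraries show which of these genes moved between the time points. DROSHA and TARBP2 were called higher at 12 h than at 5 h, and DICER1 was called lower. These are 3 of 5 genes, where 25.1% of all tested IDs were called, 11.6% higher and 13.5% lower. DGCR8 and XPO5 did not pass; the XPO5 difference was 0.17 (log2) with a 95% interval from -0.05 to 0.39. The 12 h and 5 h libraries did not overlap for the same 3 genes, against 39.1% of all tested IDs. At 5 h against rest the libraries did not overlap for 5 of the 5 genes, DICER1 included, against 45.7% of all tested IDs, and at 12 h for 3 of 5, against 45.8%.

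With all 9 libraries and TMM scaling the 5 genes had 5 different sets of calls. DROSHA was lower at both times with a called partial return, a combination shared by 159 tested IDs (1.14%). DGCR8 was lower at both times with no called move between them, like 1043 IDs (7.49%). XPO5 was lower at 5 h only, with no other call, like 380 IDs (2.73%). DICER1 was lower at 12 h against both other groups, like 637 IDs (4.58%). TARBP2 was lower at 5 h and higher at 12 h than at 5 h, like 577 IDs (4.15%). The sets rest on thresholds, and some merged under other settings. With total count scaling and with at least 50 counts in 3 libraries, DROSHA had the calls of TARBP2. These were lower at 5 h, not called at 12 h against rest, and higher at 12 h than at 5 h. DROSHA also lost its 12 h call against rest without resting replicate 3 and without 12 h replicate 1. Leaving out a library refitted only the comparisons that use its group, so those runs do not give the full set of calls. XPO5 had the calls of DGCR8 against rest, lower at both times, without resting replicate 1. The called comparison of 12 h with 5 h is the test of a difference between the times.

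**Figure D3:**
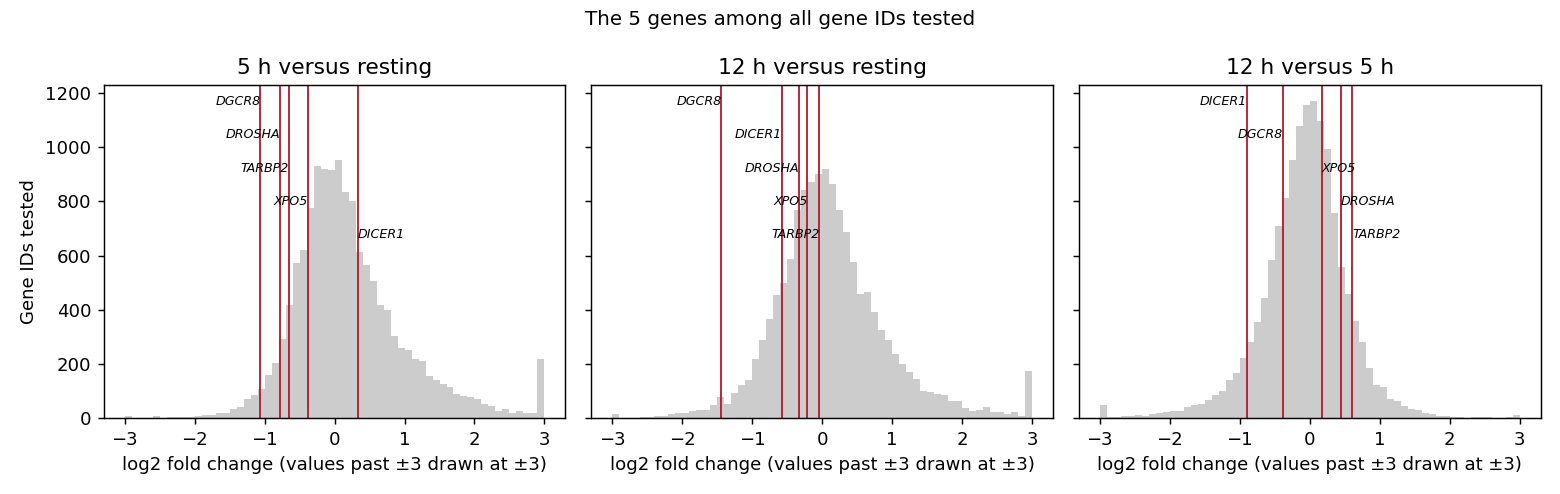
Histograms of the log2 fold changes of all 13920 IDs tested in each comparison, with values past 3 or -3 drawn at the edge. Red lines mark the 5 genes. At 5 h 4 of the lines lie left of 0 and DICER1 lies right of it, and between 5 h and 12 h DICER1 lies at the left at -0.90 and TARBP2 at the right at 0.61.

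The ratio of a pair of genes within a library does not depend on how libraries are scaled. The ratios were formed from counts with 0.5 added, for DGCR8 over DROSHA, TARBP2 over DICER1 and DICER1 over DROSHA, in 3 comparisons each, 9 tests in all. The two-sided exact permutation test over 3 against 3 libraries cannot go below p = 0.1, so by this test no ratio could pass 0.05, whatever its size. The differences are therefore given with their spread and overlap, and a p of 0.1 says nothing for or against them beyond that. Each p of 0.1 below is 0.129 after Benjamini-Hochberg adjustment over the 9 exact permutation tests. Only changes in a ratio are read, since its level depends on the lengths of both genes. The ratios use the same counts as the tests of single genes. No other pairs were formed, so how often the ratio of any pair separates the groups is not known.

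For the Microprocessor pair, DGCR8 over DROSHA was 0.329, 0.328 and 0.275 in resting replicates 1, 2 and 3. It was 0.285, 0.198 and 0.291 at 5 h and 0.106, 0.166 and 0.167 at 12 h. The 5 h libraries overlapped the resting ones, and all 12 h libraries lay below both. The log2 difference from rest was -0.29 at 5 h (exact permutation p = 0.3) and -1.11 at 12 h (exact permutation p = 0.1). DGCR8 footprints per DROSHA footprint at 12 h were 0.462 of those at rest.

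For the cytoplasmic pair, TARBP2 over DICER1 was 0.407, 0.313 and 0.350 in resting replicates 1, 2 and 3. It was 0.240, 0.164 and 0.156 at 5 h and 0.546, 0.457 and 0.551 at 12 h. The 3 groups did not overlap: the ratio was below rest in every 5 h library and above rest in every 12 h library. The means were 0.357 ± 0.0474, 0.187 ± 0.0466 and 0.518 ± 0.0532 (SD, n = 3). The log2 difference was -0.95 at 5 h and 0.54 at 12 h against rest, and 1.49, or 2.82-fold, between 12 h and 5 h, each with an exact permutation p of 0.1.

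The ratio of the RNase III enzymes, DICER1 over DROSHA, was 0.747, 0.681 and 0.629 in resting replicates 1, 2 and 3. It was 1.23, 1.49 and 1.67 at 5 h and 0.586, 0.710 and 0.459 at 12 h. All 5 h libraries lay above all others, 2.13-fold above rest on average (log2 difference 1.09, exact permutation p = 0.1). The 12 h libraries overlapped rest, with a log2 difference of -0.25 (exact permutation p = 0.3).

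**Figure D4:**
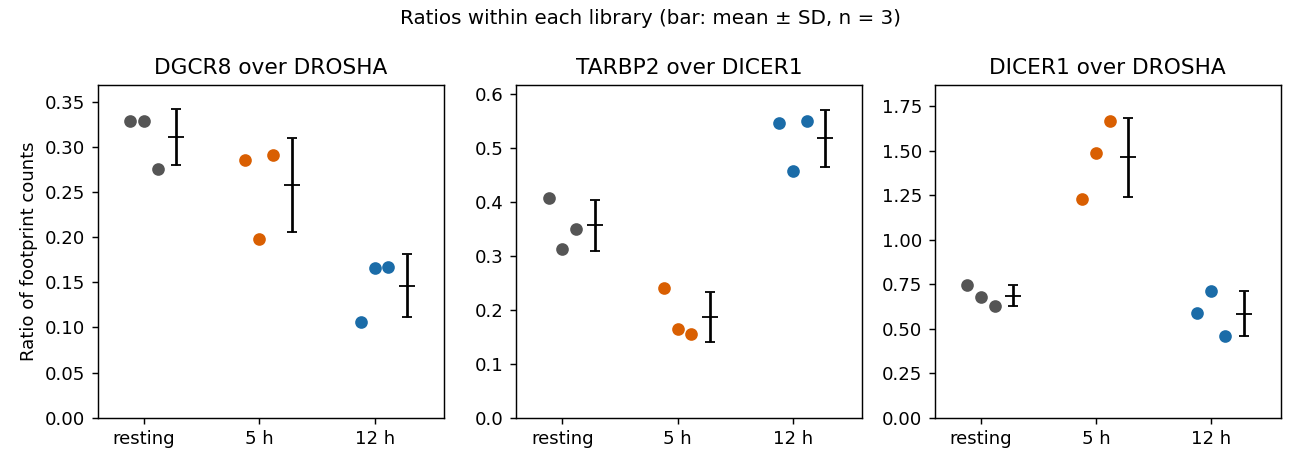
Ratio of footprint counts within each library for 3 pairs of genes, on linear axes that start at 0. Points are libraries in the order of replicates 1 to 3, and bars show the mean ± SD (n = 3). DGCR8 over DROSHA is lowest at 12 h, TARBP2 over DICER1 is lowest at 5 h and highest at 12 h, and DICER1 over DROSHA is highest at 5 h.

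The spread between replicates also differed among the genes. The fitted biological coefficient of variation was 8.62% for DROSHA, 9.03% for XPO5, 10.8% for DICER1, 13.7% for TARBP2 and 15.8% for DGCR8, and the common value over all tested IDs was 15.6%. DROSHA and XPO5 thus had lower fitted values than most IDs, with 10.9% and 15.2% of tested IDs below them. Their mean levels were also above those of 79.6% and 88.7% of tested IDs. The fitted values were not compared among IDs of like level. No other ID had counts identical to those of any of the 5 genes in all 9 libraries.

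The IDs whose levels ran most like those of a given gene were found by Pearson's r of log2 CPM over the 9 libraries, among 8827 other IDs averaging at least 10 CPM. With 3 groups in 9 libraries, r mostly reflects the group means. For DROSHA the closest was ENSG00000151702.17 (r = 0.995), at a mean of 128 CPM at rest, 49.4 at 5 h and 84.5 at 12 h. For TARBP2 it was ENSG00000158473.8 (r = 0.982), at 44.3, 23.8 and 44.2 CPM. The highest r was 0.981 for DGCR8, 0.974 for DICER1 and 0.941 for XPO5. These 2 IDs have no symbol in the tables used here and were printed after their values were seen.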

How the data were processed

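Ribosome footprints were counted in 9 Jurkat libraries, 3 per group. The deposited table holds raw whole-number counts per versioned Ensembl ID for 19569 IDs. Per the submitters' processing notes, the build was GRCh38.p13 and the tools were Bowtie, cutadapt 3.2, RSEM, bedtools and DESeq2, with no roles stated. Footprint isolation, annotation release, strand and the treatment of fragments matching several genes: not given in the sources used here. A second table by the authors holds log2 values for 11572 IDs, the 5 genes included. Checked against the counts, these are log2 of the count over 1 size factor per library, plus 1, to within 5.03e-09.

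With edgeR 4.0.16 (R 4.3.3), all 9 libraries entered 1 fit with 3 groups, TMM scaling, filterByExpr and the quasi-likelihood test. The SE is the log2 fold change over the root of the test's F, and the 95% intervals follow from it. The code was tested on simulated data. Alternatives were other scalings and filters, DESeq2 1.42.0, limma 3.58.1 on the authors' log2 table, the 6 compared libraries alone, a replicate block and leaving out each library. P-values measure the spread between the deposited replicates.

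The 5 genes, the pathway lists and the motifs were chosen with earlier results of these data known. The named genes were to be the 5 genes, the 3 genes most alike in pattern to each of them, and members of fixed lists of cofactors, export factors, Argonaute proteins and cell type markers. The tables used here pair 0 Ensembl IDs with a symbol, so the lists are not analysed here, and IDs alike in pattern are given without a symbol. RefSeq windows and miRNAs were matched by symbol, for 5 of 5 genes. Replicates of a group were distinct libraries by their counts.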

Additional observations from a re-analysis of the deposited data

Results flagged for a closer look

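Footprint levels differed between the 5 h and 12 h groups for 3 of the 5 genes. These were tested directly as 12 h against 5 h with edgeR's quasi-likelihood test and adjusted over all IDs. The labels name no unactivated cells at these times, so activation and the hours passed cannot be told apart. The difference was 0.45 (log2) for DROSHA, which was higher at 12 h than at 5 h in every library, with an adjusted p of 0.00263. It was -0.90 for DICER1, lower in every 12 h library, with an adjusted p of 2.11e-05. It was 0.61 for TARBP2, higher in every 12 h library, with an adjusted p of 0.0108. Such outcomes were common: 25.1% of all tested IDs were called for 12 h against 5 h. The libraries of these groups did not overlap for 39.1% of all tested IDs.

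The ratio of TARBP2 to DICER1 lay below rest in every 5 h library and above rest in every 12 h library. How many other pairs separate so was not counted. Libraries of single IDs did not overlap for 45.7% of IDs at 5 h and 45.8% at 12 h against rest, and for 39.1% between 12 h and 5 h. The log2 difference between 12 h and 5 h was 1.49, and the SD over 3 libraries was 0.15 at 12 h and 0.34 at 5 h. The exact permutation p was 0.1, the smallest that this test can give for 3 against 3 libraries, so it could not pass 0.05 by this test.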

How the results depend on the processing

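Of 15 differences, the 3 comparisons of 5 genes, 10 kept their direction and their side of the threshold under all 16 alternatives for each. The 9 ratio differences were recomputed only from summed counts and without each library in turn. They moved by less than the spread between replicates (1 SD). Leaving out 1 of 3 libraries moves a group mean by less than 1 SD of that group. Those runs could thus hardly pass this limit, and only the summed counts tested it. The size factors of the authors' table, scaling to the total count and likeness without symbols were chosen after seeing the data. DICER1 at 5 h passed with upper quartile scaling (0.35), total count scaling (0.47), at least 50 counts in 3 libraries (0.37) and the 6 libraries alone (0.31). Leaving out a library gave 0.25 to 0.43. XPO5 at 5 h lost its call with total count scaling (-0.24). DROSHA at 12 h lost its call with total count scaling (-0.14) and at least 50 counts in 3 libraries (-0.25), and ran from -0.38 to -0.30 without single libraries. XPO5 at 12 h ran from -0.33 to -0.13 without single libraries and was -0.02 with total count scaling. TARBP2 at 12 h, never called, turned to 0.15 with total count scaling and 0.04 with at least 50 counts, and ran from -0.13 to 0.07 without single libraries. Total count scaling shifts every gene of a library alike. It moved the median of all IDs from 0.07 to 0.22 at 5 h and from 0.04 to 0.23 at 12 h, and the calls over all IDs from 2230 higher and 2567 lower to 3112 and 1756 at 5 h, and from 2204 and 2683 to 3497 and 1671 at 12 h. The cause of the other changes was not tested. Deviations of same-numbered libraries correlated at -0.06 to 0.09 over all tested IDs, which showed no sign of pairing. Low counts add noise to these values and differently numbered libraries were not compared, so pairing is not excluded. The replicate block gave 4644, 4689 and 3373 calls for 5 h versus resting, 12 h versus resting and 12 h versus 5 h, against 4797, 4887 and 3497, and changed no call of the 5 genes. The alternatives for the pathway lists were not run, since the lists are not analysed here. Depth limits DGCR8 most, at 60 counts in its lowest library.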
